A study of Drosophila melanogaster with 6 samples.

Results

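The subject is 50 genes listed as long intergenic noncoding RNAs (lincRNAs) that were well read in whole adult male flies. They come out of 15656 genes listed, 1995 of them as lincRNAs. In the current RefSeq annotation 5 of the 50 are protein-coding. A gene was taken when it was listed as a lincRNA and its mean over the 6 libraries was at least 200 normalized counts, meaning its reads in a library over that library's size factor. The genes were thus chosen by their mean level over all libraries, which is given as a description, and the difference between the genotypes was tested separately. The overexpressed lncRNA itself, *lncRNA-CR33942* (listed as *pncr016:2R*), was left out.

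Males aged 3 to 5 d were infected with *E. coli* and sampled 12 h later. There were 3 libraries of flies that overexpressed lncRNA-CR33942, with the genotype Gal80ts; Tub>lncRNA-CR33942. Another 3 came from controls of the genotype Gal80ts; Tub-Gal4/P{CaryP}attP40, which lack the transgene. Both carried the ubiquitous tubulin Gal4 driver and Gal80ts, its temperature-sensitive repressor, and were reared at 18°C and held at 29°C for over 24 h. Uninfected flies were not analysed here. The driver acts in the whole body and RNA was taken from whole flies, so fewer cells of a type and less RNA per cell cannot be told apart. Whether each library came from a separate collection of flies is not given in the labels, and p-values measure the spread between these libraries only.

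Long noncoding RNAs act as RNA and not through a protein. In *Drosophila*, the best known are the roX RNAs and *Hsromega*. The roX RNAs join the MSL protein complex on the single male X chromosome and help to raise its transcription. Nuclear transcripts of *Hsromega* gather RNA-binding proteins into omega speckles. Others are precursors of microRNAs, lie antisense to other genes, or have since been found to encode small peptides, as *CR44404* (*IBIN*), a gene strongly induced by infection through Toll and Imd signalling.

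Library totals ran from 16894595 to 19423287 reads. Of these, 0.5% to 0.536% fell on the 50 genes. They held 72.3% to 72.6% of all lincRNA reads in the control libraries and 69.1% to 69.4% in the overexpression libraries. All lincRNA reads include those of lncRNA-CR33942, at most 0.162% of them in the control libraries and 3.36% to 3.71% in the overexpression libraries. *lncRNA-CR33942* had 203, 210 and 177 normalized counts in the control libraries and 4452, 4914 and 4544 in the overexpression libraries, so no library went against its label. In both groups the flies read as males: *roX1* was high and the female genes *Yp1*, *Yp2*, *Vm26Ab*, *Vm32E* and *osk* had group means of at most 5.48 normalized counts, although *Yp3* had 841 in the controls and 391 in the overexpressing flies.

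The levels were uneven. Only 15 of the 50 genes had a mean of at least 1000 normalized counts, the median was 461, and the top 3 genes, *CR42862* (mean 22604), *CR31781* (10973) and *CR45045* (10565), held 47.5% of all reads of the 50. Per length, the order was another. *CR45045* had 42430 normalized counts per kb of its listed length and *CR44404* 18823, followed by *CR42862* (4121), *CR31781* (4096), *CR9284* (3824), *CR44389* (3597), *CR32658* (3548) and *CR43994* (2481). The last place was taken by *CR44779* with 33.8 normalized counts per kb. Both leading genes are very short, with listed lengths of 249 and 228 bases. Of the 50 genes, 7 were listed as shorter than the cDNA fragments of 370 to 420 bp that were selected for the libraries, among them *CR45045* and *CR44404*.

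**Figure D1:**
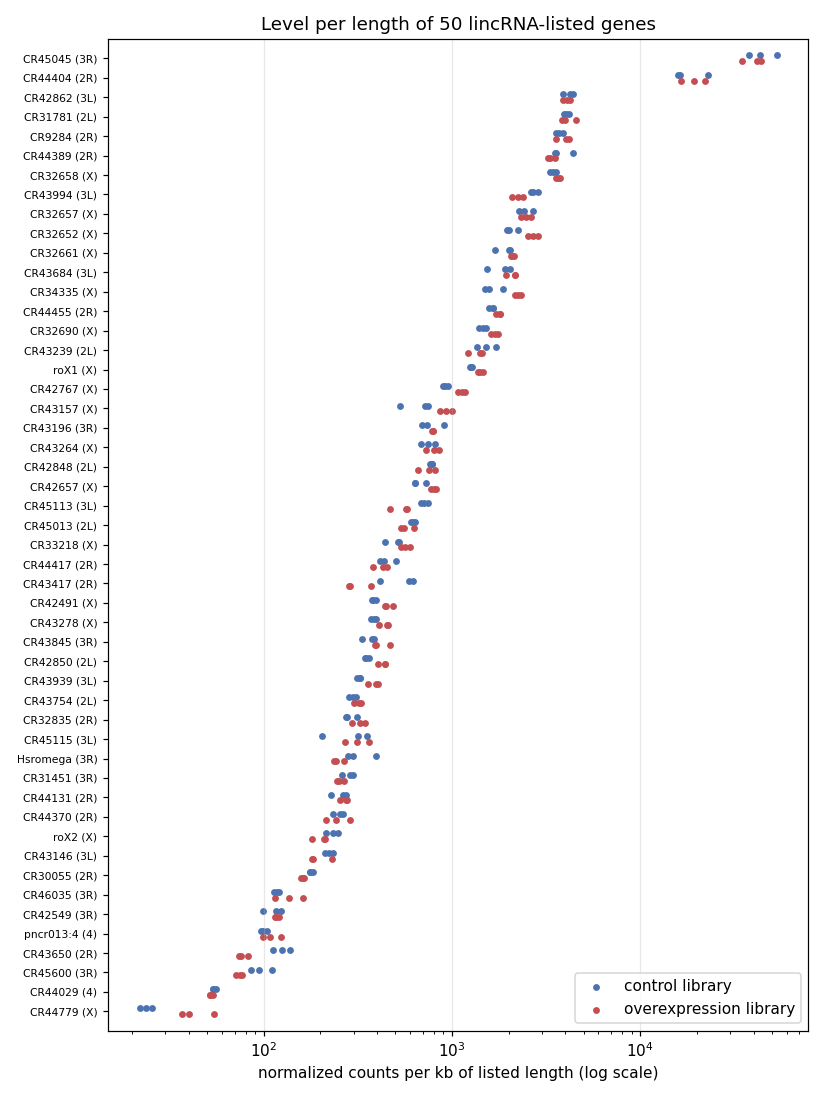
Normalized counts per kb of listed length, on a log scale, for each of the 50 genes (chromosome arm in brackets), ordered by their mean. Blue points are the 3 control libraries and red points the 3 overexpression libraries. *CR45045* and *CR44404* stand above all others, and *CR44779* is the lowest.

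Close to the limit, *CR43146* (mean 202 normalized counts), *pncr013:4* (214) and *CR44779* (220) were the last genes taken, and *CR43404* (198), *CR42859* (189) and *CR43912* (185) the first left out. In 48 of the 50 genes both group means reached 200. *CR44779* was taken through the overexpressing flies alone and *CR43146* through the controls alone. A gene taken through the group where it is high had to differ, so counts are also given without these 2.

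The names hide different kinds of genes. In the current RefSeq annotation of release 6, 42 of the 50 are lncRNAs, 3 are antisense RNAs (*CR45600*, *CR44029* and *CR44370*) and 5 are now protein-coding. The coding genes are *CR44404* (now *IBIN*, with 41 codons), *CR45045* (now *CG45045*, with 42 codons), *CR43845* (now *CG43845*, with 66 codons), *pncr013:4* (now *CG33941*, with 151 codons) and *CR42848* (now *CG46304*). Both of the most abundant genes per length thus carry a short reading frame in the current annotation. Listed lengths ran from 228 to 21710 bases, the latter for *Hsromega*, with a median of 888. Of the 48 genes found by identifier in the reference annotation, 21 have 1 continuous exon block and 27 have several.

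Small RNA precursors lie within 3 of the transcripts and overlap the start of another. The *mir-8* hairpin, at chr2R:16831432-16831518 (dm6), starts 2337 bases into *CR43650* (chr2R:16829095-16839494, plus strand). In flies *mir-8* is known for promoting body growth. The *mir-4951* hairpin lies in the distal end of *Hsromega*, 971 bases before its end. *CR31451*, now called *mimi*, shares 67 bases with *mir-9381*, which begins 7 bases before it, and *CR43939* holds *hpRNA:CR46340*, a hairpin RNA. The mature small RNAs were not measured by these libraries, which count reads of polyadenylated transcripts.

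Counts of 16 of the 48 genes share exonic bases with another annotated gene, 9 of them with one on the opposite strand. The sources used here do not say whether the counting used the strand, so reads in stretches shared with the opposite strand cannot be assigned with certainty. Nor do they say how reads shared by genes on the same strand were counted. The partners *mir-8*, *mir-4951*, *mir-9381*, *hpRNA:CR46340* and *CG3984* were not found by identifier among the genes listed. The share is largest for *CR45600*, with 1835 of 2914 exonic bases on the opposite strand of other genes. *CR45013* shares 332 of 584 bases with *Pde1c*, and *CR42491* 377 of 747 with the ribosomal protein gene *RpL22*. *pncr013:4* shares 463 of 1078 exonic bases with *Asator*, and *CR43939* 239 of 751 with its hairpin RNA. In the other 11 genes the share was at most 13.1%.

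To find whether lncRNA-CR33942 overexpression went with a change of other well-expressed lncRNAs, log2(normalized count + 1) of the genotypes was compared with limma over all 13196 genes tested, with Benjamini-Hochberg adjustment. All 50 genes passed the filter of the test. At an adjusted p under 0.05, 8 of the 50 were upregulated and 5 were downregulated in the overexpressing flies. Among all genes tested, 3.18% were upregulated and 5.24% downregulated (8.42% in either direction). Among genes whose mean reached 200 normalized counts the shares were 3.65% and 7.31% (11% in either direction). The upregulated share of the 50 lay above these backgrounds. The downregulated share was little above that of genes with a mean of at least 200. The differences from the backgrounds were not tested. In the 48 genes with both group means at 200 or more, 7 were upregulated and 5 downregulated. The changes were small: no gene of the 50 reached a log2 fold change of 1 in either direction. The largest was 0.86, in *CR44779*, which was taken through the overexpressing flies alone, and the next was -0.76, in *CR43417*. The median log2 fold change of the 50 was 0.081, with 31 positive and 19 negative, against 0.0059 over all genes tested. Without control replicate 1, 3 were upregulated and 2 downregulated, and without control replicate 3 the counts were 4 and 3. Leaving out overexpression replicate 1 gave 4 and 4, and leaving out overexpression replicate 2 gave 6 and 3. Without limma's intensity trend, which lets the assumed variance depend on the level, none was upregulated (12 at an unadjusted p under 0.05) and 1, *CR43650*, was downregulated. Every other call among the 50 was thus lost under this setting, also where it is not repeated below.

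**Figure D2:**
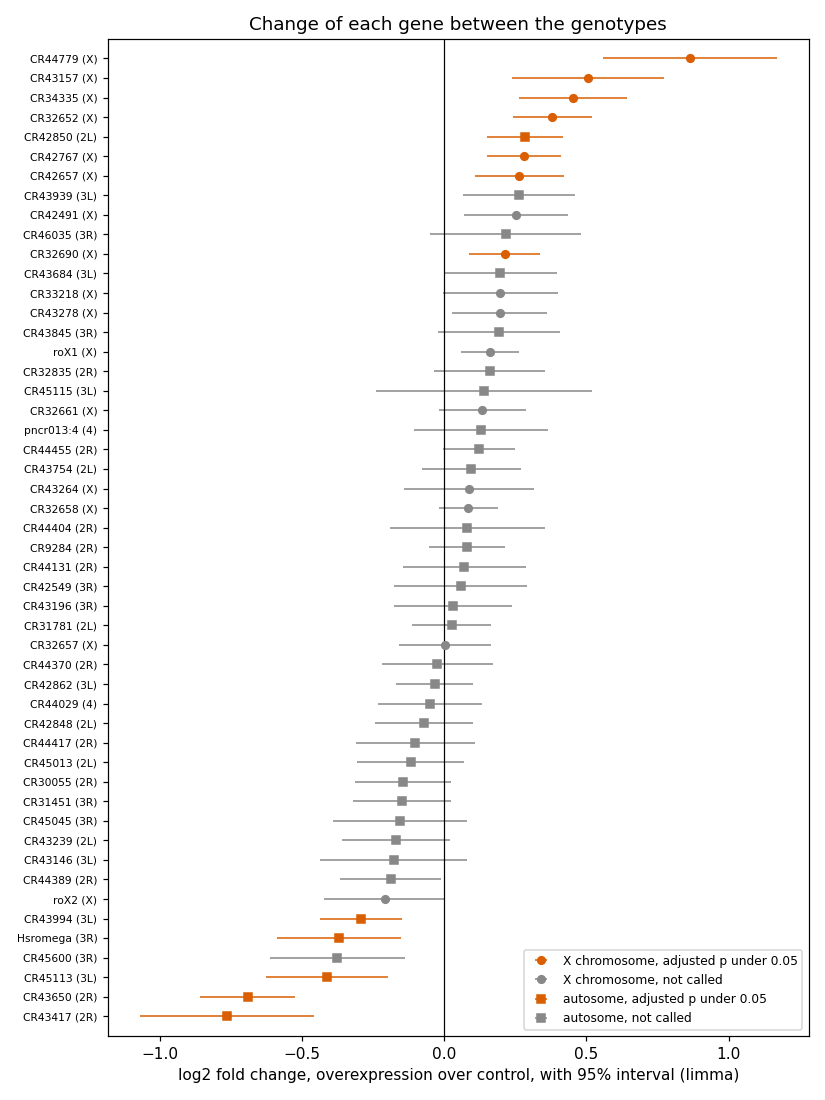
Log2 fold change of each of the 50 genes between overexpressing and control flies, with the 95% interval from limma. Circles are X-linked genes, squares autosomal genes, and orange marks an adjusted p under 0.05. The 8 upregulated and 5 downregulated genes all lie between -0.76 and 0.86.

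The 95% interval of a log2 fold change had a median half-width of 0.19 with 3 libraries a group. This interval is not adjusted for the number of genes tested. A call needed an adjusted p under 0.05, and larger changes could miss it, as -0.38 in *CR45600* did. In simulated counts for the same 13196 genes, limma recovered 50% of genes changed by 1.25-fold and 98% of those changed by 1.5-fold, each fold set on 50 genes with a mean of at least 200. The spread between replicates, as the coefficient of variation, ran from 1.01% (*CR42848*) to 26.8% (*CR45115*) in the control flies and from 0.814% (*CR43196*) to 21.5% (*CR44779*) in the overexpressing flies.

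The roX RNAs come first by role. *roX1*, at chrX:3857230-3862697 on the minus strand, had 6787, 6918 and 6988 normalized counts in the control libraries and 7493, 7997 and 7662 in the overexpression libraries. The groups did not overlap, with all overexpression libraries higher. The log2 fold change was 0.16 (standard error 0.047), which narrowly missed the threshold (limma adjusted p = 0.053) and passed it with DESeq2 (adjusted p = 0.039) and with limma voom (adjusted p = 0.05). Of 17 alternatives 5 called it, and the adjusted p ran from 0.0201, scaled to the library total (0.20), to 0.182, without the intensity trend. With 1 library left out it was never called by limma, with an adjusted p from 0.0665 to 0.181.

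*roX2*, at chrX:11579065-11580432 on the plus strand, had 292, 319 and 340 normalized counts in the control libraries and 287, 288 and 248 in the overexpression libraries. Here the groups did not overlap in the other direction, by a small step. The log2 fold change was -0.21 (SE 0.098, limma adjusted p = 0.235, 95% interval -0.42 to 0.0040). The 2 roX RNAs thus leaned in opposite directions without passing the test. On the scale of normalized counts per kb, the mean level of *roX1* (1336) was above that of *roX2* (216) in these flies. 

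Of the 10 genes of a dosage compensation list, made of both roX RNAs and *msl-1*, *msl-2*, *msl-3*, *mle*, *mof*, *Clamp*, *Unr* and *JIL-1*, limma called none. At an unadjusted p under 0.05, 2 were higher and none lower, edgeR called none, and DESeq2 called *roX1*. *msl-2*, the male-specific subunit of the complex, had 516 ± 17.8 normalized counts in the control flies and 493 ± 21.9 in the overexpressing flies (SD, n = 3 each), which is a log2 fold change of -0.066 with a standard error of 0.070. The list had a median log2 fold change of 0.012. The X-linked protein-coding genes with a mean of at least 200 had a median of -0.0051, against -0.0034 for the autosomal ones.

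Beside *roX1*, the minus-strand gene *yin*, which encodes an oligopeptide transporter, lies 268 bases away. It had 763 ± 44.0 normalized counts in the control flies and 1412 ± 158 in the overexpressing ones (SD, n = 3 each) and rose with a log2 fold change of 0.88 ± 0.078 (SE, limma adjusted p = 3.65e-05). *roX1* shares 392 exonic bases with *ec*, on the other strand, which had a log2 fold change of -0.25 (limma adjusted p = 0.171). The nearest listed genes on each side were taken for the 48 genes found in the reference annotation, without overlapping genes. Of these neighbours, 2 were upregulated, 7 downregulated, 74 not called and 13 not tested. Among all genes tested 3.18% were upregulated and 5.24% downregulated. Whether neighbours differ from these shares was not tested.

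*CR44404* (*IBIN*), at chr2R:17671068-17671295 on the plus strand, was the sixth most abundant of the 50 genes. It had 3707, 5209 and 3640 normalized counts in the control libraries and 4402, 5041 and 3752 in the overexpression libraries. The groups overlapped fully, and control replicate 2 was the highest library. The log2 fold change was 0.082 (SE 0.126, limma adjusted p = 0.764), with a 95% interval from -0.19 to 0.36. Its sign turned without control replicate 3 (-0.0090) or without overexpression replicate 2 (-0.022). No difference of this infection-induced gene between the genotypes was detectable at this precision 12 h after infection.

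*Hsromega*, at chr3R:21296127-21317836 on the plus strand, had 6469, 6108 and 8570 normalized counts in the control libraries and 5129, 5278 and 5779 in the overexpression libraries. All overexpression libraries were below all control libraries, and control replicate 3 stood above the other control libraries. It was downregulated, with a log2 fold change of -0.37 ± 0.101 (SE, limma adjusted p = 0.040). The call was lost without control replicate 1 (-0.43), control replicate 3 (-0.22), overexpression replicate 1 (-0.34) or overexpression replicate 2 (-0.36), and with DESeq2 (adjusted p = 0.162) or scaling to the library total (limma adjusted p = 0.0533).

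Of 9 genes of RNA-binding and remodelling proteins found in omega speckles or tied to them, among them *Hrb87F*, *Hrb98DE*, *sqd* and *nonA*, limma called none, with 1 higher and 1 lower at an unadjusted p under 0.05. Neither edgeR nor DESeq2 called any. The list had a median log2 fold change of -0.0011. *nonA* had the lowest adjusted p of these (0.066 from limma) with a log2 fold change of -0.19. Among the 50, *CR42491* overlaps *snoRNA:Psi18S-531* on the same strand, outside its own exons. Neither was called, with log2 fold changes of 0.25 (limma adjusted p = 0.091) and -0.029 (limma adjusted p = 0.959). Of 8 proteins of the snoRNA-carrying particles, 3 rose, namely *nop5* (0.34), *Nop56* (0.29) and *Nop60B* (0.35). Among all genes tested 3.18% were upregulated. The list had a median log2 fold change of 0.24. Without control replicate 1 or without control replicate 3 a single one of the 8, *nop5*, passed the test, and *Nop56* and *Nop60B* also missed it without overexpression replicate 3. *Nop56* missed it with DESeq2 (adjusted p = 0.0514) and without overexpression replicate 2 (limma adjusted p = 0.0857) as well. Without the intensity trend none of the 8 was called (4 at an unadjusted p under 0.05, all higher).

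**Figure D3:**
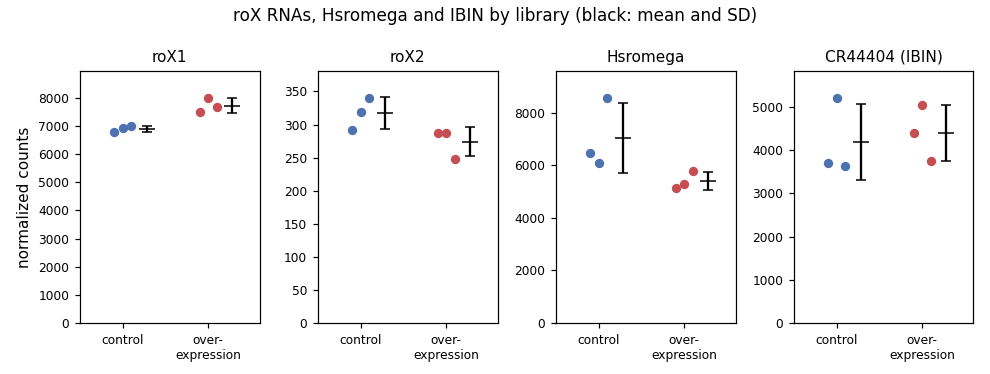
Normalized counts of *roX1*, *roX2*, *Hsromega* and *CR44404* (*IBIN*) in each of the 3 control (blue) and 3 overexpression (red) libraries, with the mean and SD of each group in black and an axis that starts at 0. The groups overlap for *CR44404* and not for the other genes.

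The fall with the lowest adjusted p was at the *mir-8* locus. *CR43650*, the transcript that holds the *mir-8* hairpin, had 1438, 1167 and 1303 normalized counts in the control libraries and 784, 768 and 861 in the overexpression libraries. The lowest control library was well above the highest overexpression library. The log2 fold change was -0.69 (SE 0.077, limma adjusted p = 0.000176), or 1.62-fold lower, and it was called under every alternative run, with values from -0.77 to -0.62.

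*CR43417*, a spliced lncRNA at chr2R:16817519-16819240 on the minus strand, lies 9854 bases from *CR43650*, and their starts face each other. It had 851, 571 and 811 normalized counts in the control libraries and 514, 394 and 395 in the overexpression libraries. The groups did not overlap, but control replicate 2 came close to overexpression replicate 1. Its log2 fold change of -0.76 (SE 0.141, limma adjusted p = 0.00499) was the largest fall of the 50 genes, and the call was lost only without the intensity trend.

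Of the tested genes around these 2, none passed the test. *CG34460*, 1339 bases before *CR43650* on the same strand, had a log2 fold change of -0.29 (limma adjusted p = 0.082), *CG34459*, between them, one of 0.13 (adjusted p = 0.4) and *CG5550*, which shares 59 exonic bases with *CR43417* on the other strand, one of -0.017 (adjusted p = 0.982). The fourth, *CR44380*, a lincRNA with under 30 normalized counts in each group, had -0.74 (limma adjusted p = 0.188).

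The other 2 downregulated genes lie on chromosome arm 3L. *CR45113* (chr3L:6305671-6306164) had 369, 339 and 349 normalized counts in the control libraries and 280, 284 and 232 in the overexpression libraries, a log2 fold change of -0.41 ± 0.098 (SE, limma adjusted p = 0.022). *CR43994* (chr3L:12027801-12028153), which lies inside the gene *rols* on the opposite strand without touching its exons, had 947, 1014 and 930 normalized counts against 841, 735 and 787, a log2 fold change of -0.29 ± 0.067 (SE, limma adjusted p = 0.017). Neither pair of groups overlapped. The call of *CR45113* was lost without control replicate 1 (-0.38), control replicate 3 (-0.42) or overexpression replicate 3 (-0.32), and that of *CR43994* without control replicate 1 (-0.30), control replicate 2 (-0.25) or overexpression replicate 2 (-0.24).

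Among the upregulated genes, 7 of 8 lie on the X chromosome. The largest log2 fold change was that of *CR44779*, which reached the mean of 200 only through the overexpressing flies (chrX:1047242-1088866, plus strand), with 154, 167 and 143 normalized counts in the control libraries and 240, 356 and 261 in the overexpression libraries. No library of one group came near the other group, and overexpression replicate 2 was the highest. The log2 fold change was 0.86 (SE 0.141, limma adjusted p = 0.00252). Of the 16 alternatives that tested it, the call was lost only without the intensity trend. With a mean of 1.89 FPKM it was not tested under the filter of 5 FPKM. As the gene was taken through the group where it is high, these values are no evidence of a difference.

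*CR44779* overlaps *CG14629* without shared exonic bases and *CG3655*, with which it shares 94 exonic bases on opposite strands. The nearest gene outside it, *CG42259*, lies 232 bases away on the same strand. That gene had a log2 fold change of 0.35 and was not called (limma adjusted p = 0.053). Both overlapping protein-coding genes moved the other way from *CR44779*. *CG14629* fell by 0.21 (limma adjusted p = 0.041) and *CG3655* fell by 0.39 (limma adjusted p = 0.021), on the log2 scale. Both calls were lost without control replicate 1, overexpression replicate 2 or overexpression replicate 3 (*CG14629* -0.17, -0.16 and -0.20, *CG3655* -0.37, -0.30 and -0.36), and that of *CG14629* also without control replicate 3 (-0.20) or scaled to the library total (-0.16).

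*CR43157* and *CR34335* rose by similar amounts. *CR43157* (chrX:11919125-11919657) had 216, 305 and 294 normalized counts in the control libraries and 382, 411 and 355 in the overexpression libraries, a log2 fold change of 0.51 ± 0.124 (SE, limma adjusted p = 0.025). *CR34335* (chrX:3545862-3546110) had 390, 462 and 372 against 538, 555 and 576, a log2 fold change of 0.45 ± 0.087 (SE, limma adjusted p = 0.00675). In both, every overexpression library was above every control library. The call of *CR43157* was lost without control replicate 1 (0.35), which held its lowest value, and without overexpression replicate 1 (0.50) or overexpression replicate 2 (0.45).

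*CR32652* (chrX:12411018-12412181) was the most abundant of the upregulated genes. It had 1742, 2000 and 1782 normalized counts in the control libraries and 2533, 2397 and 2255 in the overexpression libraries, a log2 fold change of 0.38 ± 0.064 (SE, limma adjusted p = 0.00285). The groups did not overlap and the call was lost only without the intensity trend.

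The next 2 X-linked genes lie close together. *CR42767* (chrX:9557539-9558466) had 799, 829 and 780 normalized counts in the control libraries and 929, 1017 and 978 in the overexpression libraries, a log2 fold change of 0.28 ± 0.060 (SE, limma adjusted p = 0.012). *CR42657* (chrX:9688189-9689295), 129722 bases further on, had 567, 649 and 563 against 732, 687 and 714, a log2 fold change of 0.26 ± 0.072 (SE, limma adjusted p = 0.041). Both rose in all overexpression libraries. The call of *CR42767* was lost without control replicate 1 (0.28) or control replicate 3 (0.26), and that of *CR42657* with DESeq2 (adjusted p = 0.0684) and without any 1 library other than control replicate 2 (0.23 to 0.29).

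*CR32690* (chrX:10204400-10205289) had 1144, 1253 and 1210 normalized counts in the control libraries and 1398, 1330 and 1449 in the overexpression libraries, a log2 fold change of 0.21 ± 0.058 (SE, limma adjusted p = 0.041). This was the smallest change called. It was lost with DESeq2 (adjusted p = 0.0629) and without control replicate 1 (0.18), control replicate 3 (0.22), overexpression replicate 1 (0.21) or overexpression replicate 3 (0.18). Its neighbour *CG15309*, now called *Ypel*, lies 2 bases away on the opposite strand and was downregulated, with a log2 fold change of -0.25 (limma adjusted p = 0.037). This was lost when leaving out control replicate 1 (-0.21), control replicate 3 (-0.26), overexpression replicate 1 (-0.25) or overexpression replicate 3 (-0.22), and also scaled to the library total (-0.21) or with DESeq2 (-0.25). Among all genes tested 5.24% were downregulated.

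The single upregulated autosomal gene was *CR42850* (chr2L:5379095-5381074). It had 682, 717 and 689 normalized counts in the control libraries and 870, 803 and 870 in the overexpression libraries, a log2 fold change of 0.28 ± 0.062 (SE, limma adjusted p = 0.013). The groups did not overlap, and the call was lost without control replicate 1 (0.27), control replicate 3 (0.28) or overexpression replicate 1 (0.26).

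**Figure D4:**
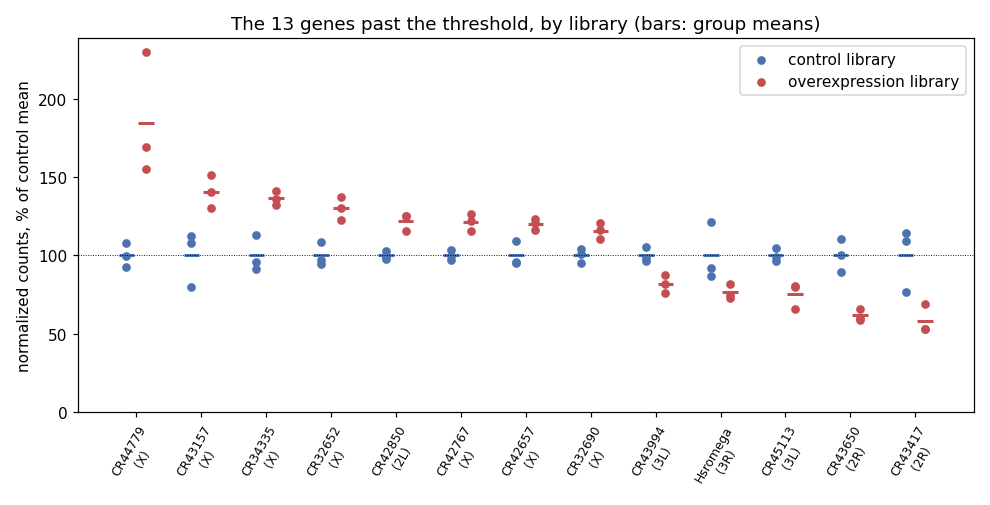
Normalized counts of the 13 genes past the threshold in each library, as a percentage of the mean of the 3 control libraries, on an axis that starts at 0. Blue points are control libraries, red points overexpression libraries and short bars the group means. In all 13 genes the groups do not overlap, and *CR44779*, *CR43650* and *CR43417* are farthest from 100.

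Set out by chromosome, a comparison chosen after the values were seen, the 16 X-linked genes differed from the 34 autosomal ones in their counts. Of the X-linked genes 15 had a positive log2 fold change, 7 were upregulated and none was downregulated by limma (none at an unadjusted p under 0.05, and none called by edgeR or DESeq2). Of the autosomal genes 16 had a positive log2 fold change, 1 was upregulated and 5 were downregulated. The median log2 fold changes were 0.20 and -0.029. Among genes with both group means at 200 or more, 6 of 15 X-linked genes were upregulated and 14 had a positive log2 fold change. The exception on the X chromosome was *roX2*. Among all X-linked genes tested, 5.14% were upregulated and 7.06% downregulated (12.2% in either direction), with a median log2 fold change of 0.010. Among all autosomal genes tested the shares were 2.79% and 4.9% (7.69% in either direction). Among the 92 X-linked lincRNA genes below 200 normalized counts that were tested, 6 were upregulated and 5 downregulated. The groups did not overlap in 12 higher and 1 lower X-linked gene of the 16, against 16.1% and 16.9% of all X-linked genes tested, and in 4 higher and 7 lower of the 34 autosomal genes, against 12.2% and 13.9%. The 12 include *CR44779*, which was taken through the overexpressing flies alone and is no evidence of a difference. The difference between the chromosomes was not tested.

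The scaling did not turn this pattern. The median of the X-linked genes was 0.25 scaled to the library total and 0.20 with TMM factors (14 of 16 positive), and that of the autosomal ones 0.012 and -0.033. The number of upregulated X-linked genes was 3 without control replicate 1, 4 without control replicate 3 or without overexpression replicate 1, and 0 once the intensity trend was dropped (10 at an unadjusted p under 0.05). Of the 16 X-linked genes, 9 lie between the positions of *CR42767* and *CR32652*. Within that stretch neighbours did not all move alike: *CR32661*, 446 bases from *CR43157* on the same strand, had a log2 fold change of 0.13 (limma adjusted p = 0.297), and *CR32657* and *CR32658*, both in introns of *Ten-a*, had 0.0027 and 0.085.

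**Figure D5:**
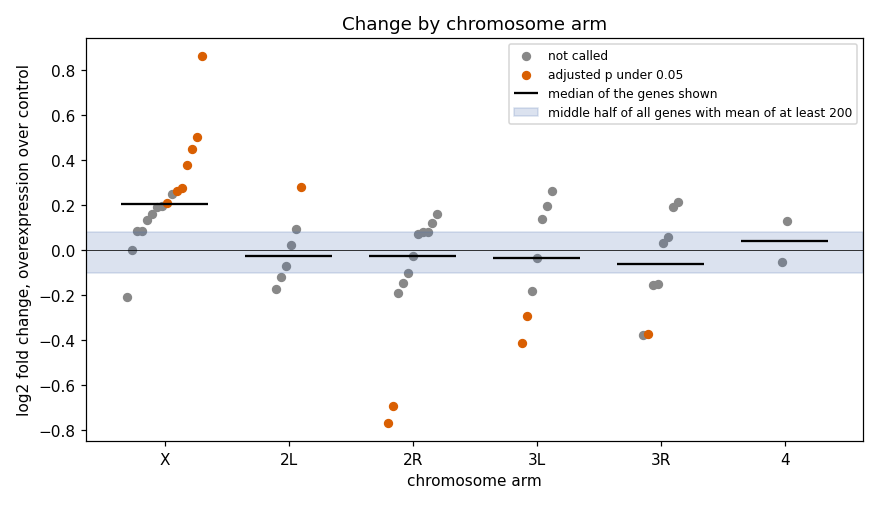
Log2 fold change between overexpressing and control flies for each of the 50 genes, by chromosome arm. Orange points have an adjusted p under 0.05, black bars are medians, and the blue band is the range between the quartiles of all genes with a mean of at least 200 normalized counts. On the X chromosome 15 of 16 genes lie above 0, while the medians of arms 2L, 2R, 3L and 3R lie just below it.

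In 16 of the 50 genes all overexpression libraries were above all control libraries, and in 8 all were below. The 16 include *CR44779*, which was taken through the overexpressing flies alone. Over all genes tested the shares were 12.9% and 14.4%, and over genes with a mean of at least 200 they were 13.5% and 18.2%. Besides the called genes and the roX RNAs, these were 9 genes, among them *CR42491*, *CR43939* and *CR45600*, whose log2 fold changes were 0.25, 0.26 and -0.38 with adjusted p-values of 0.091, 0.1 and 0.053 from limma. *CR45600* shares 1835 exonic bases with genes on the opposite strand, and was called downregulated by edgeR.

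None of the 3 genes with the most reads passed the test. *CR42862* (chr3L:224106-230964) had 23960, 23362 and 21302 normalized counts in the control libraries and 21373, 22291 and 23334 in the overexpression libraries, a log2 fold change of -0.034 with a 95% interval from -0.17 to 0.10. *CR31781* (chr2L:16869346-16878300) had 10599, 11227 and 10757 against 10726, 10265 and 12264, a log2 fold change of 0.026 with an interval from -0.11 to 0.17. The groups overlapped in both, and the sign turned scaled to the library total (0.0070) or without control replicate 1 (0.00060) for *CR42862*, and without overexpression replicate 3 (-0.049) for *CR31781*. *CR45045* (chr3R:17667577-17667825) had 9422, 13213 and 10842 against 10908, 10333 and 8674, a log2 fold change of -0.16 with an interval from -0.39 to 0.080. Of the other genes with the most reads per kb, *CR9284*, *CR44389* and *CR32658* had log2 fold changes of 0.080, -0.19 and 0.085 and none was called. The same held for *pncr013:4* (0.13) and *CR43146* (-0.18) near the limit of 200.

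Marker lists of several tissues held called genes. Over all genes tested, 3.18% were upregulated and 5.24% downregulated, and a single call in a short list cannot be told from these shares. Of 10 photoreceptor genes 7 were upregulated, and their summed level was 88641 to 90473 normalized counts in the control libraries and 105090 to 115790 in the overexpression libraries. Of 8 muscle genes 3 were downregulated (summed 151480 to 163510 against 126760 to 144770), as were 3 of 4 fat body genes (36447 to 41687 against 24464 to 35535) and 1 of 7 accessory gland genes (42831 to 44420 against 37068 to 40950). Of 5 blood cell genes tested 2 were upregulated and 1 downregulated. DESeq2 called 7 photoreceptor and 3 blood cell genes higher. It called 4 muscle, 2 accessory gland, 1 fat body and 1 blood cell gene lower. Of 10 testis and 7 neuron genes tested limma called none, with 3 of each at an unadjusted p under 0.05, and edgeR and DESeq2 called none either. Without control replicate 3 limma called 1 neuron gene lower. Without control replicate 1 the calls were 5 photoreceptor, 1 muscle and 0 fat body genes, and dropping the intensity trend left none in any of these lists. *Mst84Da*, of the testis list, had 1.07 normalized counts in the control flies and 0.662 in the overexpressing ones, and *He*, of the blood cell list, 4.75 and 6.02. The part of tissue makeup in the changes of the lncRNAs was not tested.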

How the data were processed

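Poly(A)-selected RNA of infected males was sequenced in 3 libraries a genotype. Per the submitters' processing notes, HISAT2 2.0.5, featureCounts 1.5.0-p3 and DESeq2 were used with the build dm6, while the sources used here name no annotation release. The deposited signal of each library is its read count per gene divided by 1 size factor, although the table is named FPKM. Multiplied back, 100% of values were whole reads (tolerance 0.01). The authors' group means, log2 fold change and p-values from their own comparison were not used. No column of per-sample values was left unmapped.

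The planned design had assumed FPKM, and its test was kept: limma 3.58.1 (R 4.3.3) on log2(normalized count + 1) with an intensity trend, for genes averaging at least 0.5 FPKM, computed from the recovered reads and deposited lengths. On this scale the change of low genes is understated. Benjamini-Hochberg adjustment ran over all 13196 genes. edgeR 4.0.16 and DESeq2 1.42.0 on the recovered reads, limma voom, other scalings, pseudocounts and filters, a replicate block and leaving out each library were alternatives. In counts simulated for this comparison, limma recovered 100% of genes changed 2-fold, and 8.42% of its calls were unchanged genes. Replicates differed by more than sampling noise in every pair (chi-square per degree of freedom 5.05 to 8.99).

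The 50 genes and the lists were chosen with earlier results of these data known. Named were the roX RNAs, *CR44404*, all genes past the threshold, the 8 with the most reads per kb, those without a CR number, those nearest the limit of 200, and direct neighbours of these. Other genes of the 50 and genes of the lists were named after their values were seen. Of the list genes, *Hrb57A*, *NOP10*, *Lpp* and *Vm26Aa* were not found by name. No sequences are shown, since they were not used here.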

Additional observations from a re-analysis of the deposited data

How the results depend on the processing

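Scaled to the library total, 632 of all genes tested were upregulated and 503 downregulated, against 420 and 691 in the values reported, and the median of all genes moved from 0.0059 to 0.046. Without the intensity trend, 0 of the 50 were upregulated and 1 downregulated (12 and 7 at an unadjusted p under 0.05), and 94 and 99 of all genes. Leaving out 1 library gave 3 to 8 upregulated and 2 to 4 downregulated genes of the 50, and 201 to 393 and 328 to 618 of all genes, the fewest without control replicate 1. The log2 fold change changed sign in *CR42862* scaled to the library total (0.0070), and with 1 library left out it ran from -0.0842 to 0.0006 in *CR42862*, from -0.0493 to 0.0791 in *CR31781* and from -0.0220 to 0.2495 in *CR44404*. In all, 10 of the 50 changed sign under at least 1 alternative, none of them called (the others were *CR32657*, *CR44370*, *CR43196*, *CR42848*, *CR45115*, *CR44131* and *CR42549*). The cause was not tested. edgeR gave 8 upregulated and 6 downregulated genes of the 50, DESeq2 7 and 4, and limma voom 9 and 5. The libraries share only replicate numbers: the deviations of same-numbered libraries correlated at -0.034, 0.052 and -0.036, and overexpression replicate 1 correlated best with control replicate 3 (0.081). With the replicate number as a block, 9 of the 50 were upregulated and 5 downregulated, and 517 and 846 of all genes. In the simulated counts with 3 libraries a group, limma recovered 50% of the genes changed 1.25-fold. Each fold was set on 50 genes, far fewer than the 1111 called in these data, and the adjustment depends on that number. The recovered share therefore need not hold for the data, where the smallest change called among the 50 was 1.16-fold (*CR32690*).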
